A study of Callithrix jacchus with 20 samples.

Results

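Gene expression of day 4 cjPGCLCs was compared with that of the pre-ME from which they were induced, both made without Activin A (ActA). The comparison rests on 4 of the 20 RNA-seq libraries of the study, 2 biological replicates of each group, and was followed over all genes. All libraries came from 1 line of common marmoset (Callithrix jacchus) induced pluripotent stem cells, named DPZ_cjiPSC2 in the sample labels, which was reprogrammed from foetal fibroblasts with episomal vectors. These cjiPSCs were kept in cjPSCM (1 label writes cjEPSCM), a human expanded-potential stem cell medium to which TGFβ and FGF2 were added. According to the study, cjPSCM did not fully induce the expression changes of expanded pluripotency. Pre-ME, an early precursor of mesendoderm, was made by plating the cells for 24 h with the WNT agonist CHIR and without ActA, and was harvested unsorted. For cjPGCLCs, pre-ME cells were aggregated into embryoid bodies with BMP4, LIF, SCF and EGF, and positive cells were sorted on day 4. The titles call the sorted cells INTα6 and EpCAM positive, other label fields call them CXCR4 and EpCAM positive, and the methods of the study name INTα6 and CXCR4. The genes of these markers chose the cells, so their levels are no finding. The groups therefore differ in time, aggregation, cytokines and sorting, and possibly in the RNA isolation kit, and the effects of these cannot be told apart. The double-negative somatic cells sorted from the same kind of embryoid bodies (2 libraries), the cjiPSCs in cjPSCM (2 libraries) and the matching cjPGCLCs and pre-ME made with ActA (2 libraries each) are shown where they place a result.

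Primordial germ cells (PGCs) are the first cells of the germline and are induced by BMP signals in early post-implantation embryos, from cells that have been made competent by WNT. In primates SOX17 is the key specifier of the fate and acts with TFAP2C and PRDM1 (BLIMP1), while a part of the pluripotency network is kept. SOX17 is also a gene of the definitive endoderm, TFAP2 and GATA factors are shared with amnion, and BMP induces amnion and extraembryonic mesoderm as well, so germ cell genes are best read beside the markers of these neighbours.

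In the 4 libraries 6708740 to 17491202 reads were counted on genes, against 4784783 to 22066961 in all 20 libraries. Levels are given as the authors' normalised counts, which are read counts scaled by DESeq2 size factors and are not corrected for gene length, so that levels of different genes cannot be compared. Differences were tested with edgeR's quasi-likelihood F-test on the raw counts, and a gene is said to have risen or fallen where the Benjamini-Hochberg adjusted p was under 0.05. Genes past both thresholds also had a log2 fold change beyond 2, the limit used in the study. Errors of log2 fold changes are standard errors, with n = 2 libraries per group throughout. Replicates were alike, with a correlation over genes of 0.985 in cjPGCLCs and 0.987 in pre-ME. The labels call them biological replicates of the same line. The p-values rest on the spread between replicates over the groups of all 20 libraries, all of 1 line, and not on the 4 libraries alone. In bulk RNA, fewer cells of a type and less RNA per cell cannot be told apart.

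The step from pre-ME to cjPGCLCs changed many genes, and large changes were mostly increases. Of 15795 genes tested, 912 (5.77%) were higher in cjPGCLCs past both thresholds and 333 (2.11%) were lower. By the adjusted p alone 3398 genes (21.5%) rose and 2924 (18.5%) fell, and the counts in gene lists given below are to be read against these shares of all genes. The median log2 fold change over all genes was 0.01, with quartiles of -0.43 and 0.54, and 77.4% of genes stayed within a log2 fold change of 1 either way. The libraries of both groups did not overlap for 907 of the 912 higher genes and for all 333 lower genes. With 2 libraries a group this is common, and it held for 73.7% of all tested genes. In 237 of the higher genes both pre-ME libraries had 3 reads or fewer, the floor from which bounds of folds are computed, and the same held for 111 of the lower genes in cjPGCLCs. The 912 genes took 5.48% and 4.73% of the gene counts in the cjPGCLC libraries, against 0.683% and 0.594% in pre-ME. The 333 genes took 0.109% and 0.118% in cjPGCLCs and 0.735% and 0.752% in pre-ME.

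**Figure D1:**
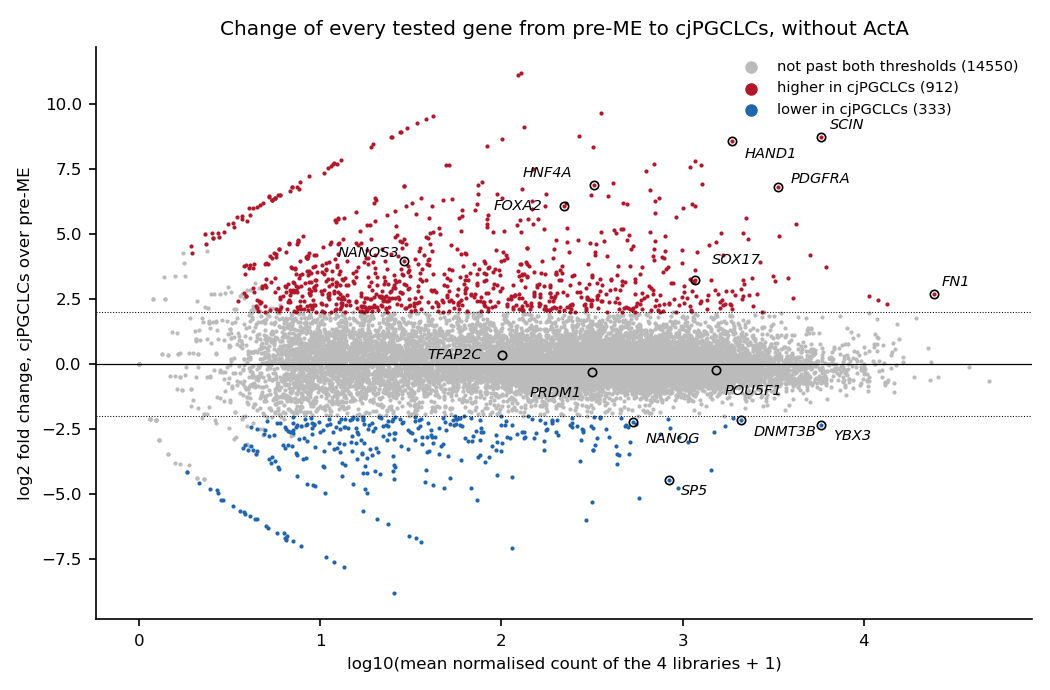
Each point is 1 of the 15795 tested genes, with the log10 of its mean normalised count plus 1 over the 4 libraries on the x axis and its log2 fold change of cjPGCLCs over pre-ME on the y axis. Red points (912) and blue points (333) passed both thresholds, grey points did not, dotted lines mark log2 fold changes of 2 and -2, and the straight streaks at the left are genes with no read in 1 group. SCIN, HAND1 and PDGFRA lie at the upper right, SP5 at the lower edge, and TFAP2C, PRDM1 and POU5F1 near 0.

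Among the PGC specification factors SOX17 rose strongly, from pre-ME that already held some of its RNA. SOX17 had 2152 and 2096 normalised counts in the cjPGCLC libraries, 199 and 255 in pre-ME and 48.4 and 118 in the somatic cells. Both cjPGCLC libraries stood far above these pre-ME and somatic libraries. The log2 fold change was 3.22 ± 0.46 over pre-ME (adjusted p = 4.3e-05) and 4.63 ± 0.53 over somatic cells (adjusted p = 2.5e-05). TFAP2C, the AP2γ factor that acts with SOX17, had 100.2 and 126 normalised counts in cjPGCLCs and 61.3 and 114 in pre-ME. These ranges overlap, and TFAP2C did not pass the test against pre-ME (log2 fold change 0.36 ± 0.43, adjusted p = 0.53). In somatic cells it stood at 18.4 and 27.8, below both cjPGCLC libraries, with a log2 fold change of 2.25 ± 0.53 (adjusted p = 0.011) that lost its call without cjPGCLC replicate 2 (adjusted p = 0.055), without somatic replicate 1 (0.11) or without somatic replicate 2 (0.073). PRDM1, a repressor of somatic genes, had 288 and 279 normalised counts in cjPGCLCs and 408 and 290.3 in pre-ME, so both cjPGCLC libraries lay just under the lower pre-ME library. Its log2 fold change over pre-ME was -0.32 ± 0.22 (adjusted p = 0.26) and over somatic cells 1.65 ± 0.26 (adjusted p = 0.00043). TFAP2C and PRDM1 thus differed between the sorted populations and did not pass the test against the pre-ME.

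The other members of this list moved in both directions. Of 13 tested PGC specification factors, 7 rose (5 past both thresholds) and 2 fell (both past both thresholds), with a median log2 fold change of 1.54 against 0.01 over all genes. Most of these genes were named by the study on these libraries, so the count is not independent evidence. GATA2, a zinc finger factor of early amnion and trophoblast as well, stood at 5937 and 5798 in cjPGCLCs against 542 and 719 in pre-ME (3.21 ± 0.23, adjusted p = 2.3e-08). GATA3 (3.07 ± 0.28), TFAP2A (2.22 ± 0.37), the T-box factor TBX3 (3.10 ± 0.26) and KLF4 (1.54 ± 0.26) rose as well, each with both cjPGCLC libraries above both pre-ME libraries. GATA2, TBX3 and KLF4 were also higher than in somatic cells, by log2 fold changes of 2.20 ± 0.22, 2.50 ± 0.27 and 3.22 ± 0.32, while GATA3 had 4737 and 4477 normalised counts there and TFAP2A 796 and 539.9. ELF3, an epithelial ETS factor, had 128 and 50.4 normalised counts in cjPGCLCs and 19.5 and 27.7 in pre-ME (1.97 ± 0.57, adjusted p = 0.011), and its replicates were far apart. Without cjPGCLC replicate 1 the ELF3 change was 1.08 (adjusted p = 0.26), and without pre-ME replicate 1 it was 1.70 (adjusted p = 0.097). PRDM14, a regulator of pluripotency and of mouse PGCs, fell at least 8.7-fold, from 34.2 and 26.7 normalised counts in pre-ME to 0.759 and 3.15 in cjPGCLCs, a call that was lost without cjPGCLC replicate 1 (adjusted p = 0.10). NR5A2, a nuclear receptor that acts on POU5F1, fell from 73.1 and 71.3 to 7.59 and 11 (-3.02 ± 0.43, adjusted p = 3.9e-05). EOMES, a T-box factor of the streak, was under 10 normalised counts in all 4 libraries and did not pass the test (adjusted p = 0.59). The study reported NR5A2 and EOMES as higher in cjPGCLCs than in somatic cells.

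NANOS3, an RNA-binding protein that protects PGCs from cell death, had the largest log2 fold change among the tested early germ cell genes. It had 61.5 and 44.1 normalised counts in cjPGCLCs, 3.54 and 2.97 in pre-ME and 0 and 3.09 in somatic cells. Both cjPGCLC libraries were well above these pre-ME and somatic libraries. The log2 fold change was 3.96 ± 0.65 over pre-ME (adjusted p = 0.00014). Over somatic cells, where neither library had more than 3 reads, NANOS3 was at least 9.14-fold higher. The cjPGCLCs made with ActA held NANOS3 too, at levels given below. DPPA3 (STELLA), a maternal factor that guards DNA methylation, had 47.1 and 48.9 normalised counts in cjPGCLCs, 11.2 and 25.8 in pre-ME and 2.31 and 0 in somatic cells. It was at least 8.3-fold higher in cjPGCLCs than in somatic cells, although without somatic replicate 2 the adjusted p was 0.057. Over pre-ME its log2 fold change of 1.42 ± 0.52 only just passed the test (adjusted p = 0.04) and did not pass without pre-ME replicate 1 (0.31), without cjPGCLC replicate 1 (0.13) or without cjPGCLC replicate 2 (0.11). KIT, the receptor of SCF, rose from 439.8 and 353 to 932 and 1141 normalised counts (1.37 ± 0.22, adjusted p = 0.00012), and the somatic libraries held 749 and 965.

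Of the 12 tested early germ cell genes, 5 rose (3 past both thresholds) and 2 fell (1 past both thresholds, 2 without cjPGCLC replicate 1), and 5 did not pass, with a median of 0.02. Without CXCR4, a gene of the sort, 4 of 11 rose (2 past both thresholds) and 2 fell, with a median of -0.32. LAMA4, a laminin chain, rose from 406 and 347 to 2297 and 2499.6 (2.66 ± 0.21), and the sort marker gene CXCR4 rose by 3.01 ± 0.26. PDPN (podoplanin) fell (-1.80 ± 0.28) and ALPL, the tissue-nonspecific alkaline phosphatase, from 174 and 134 to 9.11 and 18.9 (-3.59 ± 0.60, adjusted p = 0.00018). DND1, an RNA-binding partner of NANOS proteins, had 20.5 and 18.9 in cjPGCLCs and 37.1 and 22.8 in pre-ME and did not pass (adjusted p = 0.25). UTF1, a chromatin factor of pluripotent and germ cells, had 43.3 and 56.7 in cjPGCLCs against 80.8 and 105 in pre-ME (log2 fold change -0.92 ± 0.43, adjusted p = 0.097), and it was at least 8.65-fold higher in cjPGCLCs than in somatic cells. Of 24 genes of later germ cells in the table, 8 had enough reads to be tested, none rose, and 2 fell, among them the synaptonemal complex gene SYCP1 (-1.85 ± 0.26). The 2 became 1 without pre-ME replicate 2 or without cjPGCLC replicate 1. The sum over this list was 239 to 246 normalised counts in cjPGCLCs and 517 to 736 in pre-ME.

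Against pre-ME, pluripotency genes moved in both directions, more of them downwards. Set against somatic cells, the 12 tested genes had a median log2 fold change of 0.70, with 1 higher past both thresholds and none lower. The study reported NANOG and POU5F1 as higher and SOX2 as lower in cjPGCLCs than in somatic cells. POU5F1 (OCT4) had 1381 and 1458 normalised counts in cjPGCLCs and 1645 and 1668 in pre-ME, a log2 fold change of -0.24 ± 0.17 that did not pass the test (adjusted p = 0.28). NANOG fell from 758 and 988 to 146 and 238 normalised counts (-2.23 ± 0.28, adjusted p = 1.4e-05). SOX2, which primate PGCs turn off, fell from 3329 and 3624 to 1100.4 and 1571 (-1.40 ± 0.25, adjusted p = 0.00037) and was still present in every library. The cjiPSC libraries held 2323 and 2926 normalised counts of POU5F1 and 1760.5 and 1300.01 of NANOG, more than any pre-ME or cjPGCLC library. LIN28A (-0.85 ± 0.22), ZFP42 (REX1, -1.42 ± 0.19) and GDF3 (-3.59 ± 0.54) fell, and KLF5, a naive pluripotency and epithelial factor, rose from 180.4 and 229.8 to 2332 and 1672 (3.28 ± 0.34, adjusted p = 1.6e-06). KLF5 had 157 and 125 normalised counts in somatic cells, below both cjPGCLC libraries by a log2 fold change of 3.86 ± 0.37. Over the list, 2 of 12 tested genes rose and 6 fell (1 and 2 past both thresholds, the 2 being 1 without cjPGCLC replicate 1), with a median of -0.42, and several of these genes were named by the study.

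Genes of the primed epiblast fell in larger numbers, ZIC2 and SOX3 among them. Of 14 tested members 8 fell (6 past both thresholds) and 2 rose, with a median of -1.16, the lowest of the 34 lists examined. ZIC2 went from 2678 and 2756 normalised counts in pre-ME to 166 and 161 in cjPGCLCs (-4.07 ± 0.64, adjusted p = 0.00011), and SOX3, a SOXB1 factor of epiblast and neural plate, from 199.8 and 158 to 9.11 and 9.46 (-4.27 ± 0.53). For both genes the pre-ME libraries were above those of cjiPSCs, cjPGCLCs and somatic cells. ZIC5 (-2.43 ± 0.45) and the surface protein gene THY1 (-2.61 ± 0.24) fell as well. Neural markers showed no common change, with 2 of 9 tested genes up, 3 down (1 without pre-ME replicate 1) and a median of -0.41.

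**Figure D2:**
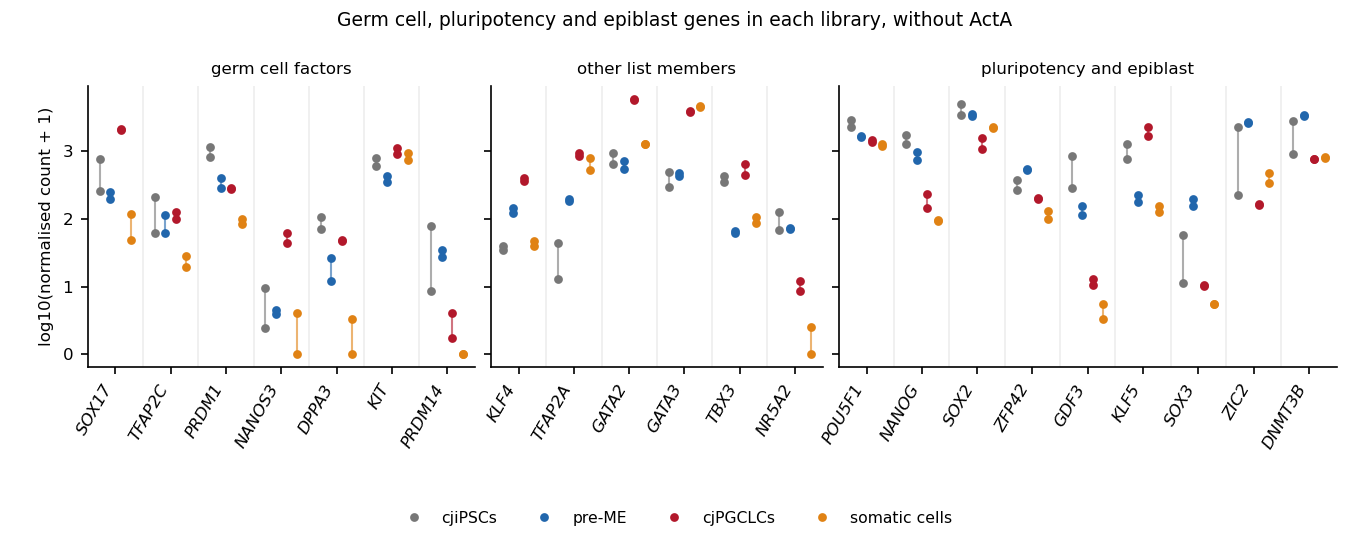
The y axis gives the log10 of the normalised count plus 1, with 1 point per library and a line joining the 2 replicates of a group, for cjiPSCs in cjPSCM, pre-ME, cjPGCLCs and somatic cells without ActA. SOX17, NANOS3, GATA2, KLF4 and KLF5 are highest in cjPGCLCs, TFAP2C and PRDM1 overlap with or lie under pre-ME, and NANOG, GDF3, SOX3 and ZIC2 drop from pre-ME to cjPGCLCs.

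Of 14 tested primitive streak genes 4 fell, 3 of them past both thresholds, none rose and 10 did not pass. SP5, a direct WNT target, went from 1763 and 1444 normalised counts in pre-ME to 81.3 and 59.9 in cjPGCLCs (-4.48 ± 0.24, adjusted p = 9.9e-10). NKX1-2 went from 887 and 738 to 70.6 and 74.1 (-3.51 ± 0.53) and CDX1 from 199 and 147 to 44 and 28.4 (-2.21 ± 0.27, adjusted p = 1.1e-05). FOXH1, the DNA-binding partner of SMAD2 and SMAD3, fell (-0.97 ± 0.15). MIXL1 was under 10 normalised counts in all 4 libraries and did not pass (adjusted p = 0.41), and EVX1, with 252 and 154 against 111 and 70.3, missed the threshold (adjusted p = 0.066).

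Most tested markers of endoderm, amnion and mesoderm rose. The endoderm factor FOXA2 had 518 and 356 normalised counts in cjPGCLCs against 5.31 and 7.93 in pre-ME and 4.61 and 0 in somatic cells. It was thus found in both cjPGCLC libraries and in hardly any reads of the pre-ME and somatic cells without ActA. Its log2 fold change was 6.07 ± 0.51 over pre-ME (adjusted p = 2.9e-07), and it was at least 75.6-fold above somatic cells. The cjPGCLCs made with ActA held FOXA2 as well, at levels given below. HNF4A, a nuclear receptor of endoderm and liver, had 835 and 446 in cjPGCLCs, 2.95 and 8.92 in pre-ME and 9.22 and 1.55 in somatic cells (6.88 ± 0.68 over pre-ME and 7.09 ± 0.79 over somatic cells). APOA1, an apolipoprotein of visceral endoderm and liver, was also higher than in somatic cells (4.14 ± 0.50 over pre-ME and 3.18 ± 0.49 over somatic cells). GATA4 had 3322 and 1743 against 14.7 and 28.7 in pre-ME (6.94 ± 0.48) and GATA6 2397 and 1792 against 421 and 388 (2.36 ± 0.27), and both stood at like levels in somatic cells (2161 and 1813 for GATA4 and 3139 and 2865 for GATA6). For HNF4A, GATA4 and APOA1, cjPGCLC replicate 1 held more than replicate 2. FOXA3 rose by 1.64 ± 0.56 (adjusted p = 0.027), a call that was lost without cjPGCLC replicate 1 (0.26), pre-ME replicate 1 (0.12) or pre-ME replicate 2 (0.11).

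Counted over the list, 8 of 11 tested endoderm markers rose (7 past both thresholds, with or without any 1 of the 4 libraries) and 1 fell (none without pre-ME replicate 2 or without cjPGCLC replicate 1), with a median of 3.24. The summed normalised counts of these markers were 7234 to 11565 in cjPGCLCs, 1020 to 1093 in pre-ME and 5559 to 6049 in somatic cells. Checked against its markers, the label cjPGCLC was met in part. SOX17 and NANOS3 rose and PRDM1 was higher than in somatic cells, as was TFAP2C, whose call depended on single libraries. The endoderm genes FOXA2 and HNF4A were present in the same RNA, as were the amnion and mesoderm markers given below. How much of the SOX17 signal came from endoderm was not tested here. In stained sections of unsorted embryoid bodies, older than those sorted here, the study found FOXA2 protein only in a few SOX17 single-positive cells. On day 4 it found SOX17, AP2γ, NANOG and BLIMP1 protein together in some cells, with and without ActA.

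The amnion and surface ectoderm list had the largest share of members higher past both thresholds among the 34 lists. Of 17 tested genes 15 rose, 12 of them past both thresholds, and 1 fell, a call that was lost when any 1 of the 4 libraries was left out, with a median of 2.79. TFAP2A and GATA3 are in this list as well as among the PGC factors, and with HAND1, DLX5 and BAMBI they are also among the BMP response genes. VTCN1, an immune checkpoint protein used as a marker of amnion and trophoblast, was nearly absent from pre-ME (0.59 and 1.98 normalised counts) and had 642 and 426 in cjPGCLCs, at least 225-fold more. GABRP, a GABA receptor subunit of amnion, had no read in pre-ME and 69.1 and 47.3 normalised counts in cjPGCLCs, at least 24.6-fold more. ISL1, a LIM factor of amnion and cardiac progenitors, rose from 59.5 and 62.4 to 1345 and 1329 (4.44 ± 0.20, adjusted p = 1.6e-10). The keratin gene KRT8 (2.79 ± 0.46) and TFAP2B (3.70 ± 0.57), a TFAP2 factor of surface ectoderm, rose too. Summed over the list, somatic cells held 23042 to 29223 normalised counts, the cjPGCLCs 22680 to 27837 and pre-ME 4432 to 4595. The sorted populations overlapped in this sum.

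Most mesoderm and mesenchyme markers rose in cjPGCLCs too, and some were higher still in the somatic cells. HAND1, a bHLH factor of extraembryonic mesoderm and amnion, had 4155 and 3343 normalised counts in cjPGCLCs, 8.25 and 11.9 in pre-ME and 4845 and 3588 in somatic cells (8.57 ± 0.35 over pre-ME, adjusted p = 7e-11). PDGFRA, the receptor of mesenchymal cells for PDGF, had 7781 and 5585 in cjPGCLCs, 61.3 and 56.5 in pre-ME and 8217 and 6436 in somatic cells (6.81 ± 0.34 over pre-ME). For both, cjPGCLC and somatic libraries lay in the same range. PRRX1 (7.58 ± 0.34), the heart factor TBX20 (7.68 ± 0.43) and TWIST1 (5.66 ± 0.33) rose over pre-ME as well. HAND2 had 836 and 403 in cjPGCLCs, 6.48 and 6.93 in pre-ME and 3509.9 and 2567 in somatic cells, and POSTN, the matrix protein periostin, had 1151 and 634 in cjPGCLCs, 24.8 and 23.8 in pre-ME and 5189 and 3797 in somatic cells. Both lay clearly below the somatic cells, with log2 fold changes of cjPGCLCs over somatic cells of -2.26 ± 0.41 for HAND2 and -2.30 ± 0.30 for POSTN, and SNAI2 (-1.17 ± 0.17), DCN (-1.82 ± 0.26) and FN1 (-1.22 ± 0.23) were lower than in somatic cells as well. Of 23 tested markers 17 rose over pre-ME (11 past both thresholds) and 2 fell (1 without pre-ME replicate 1 or without cjPGCLC replicate 1), with a median of 1.81, and 3 were lower than in somatic cells past both thresholds. The sums were 99282 to 121008 in cjPGCLCs, 41212 to 41885 in pre-ME and 200321 to 219724 in somatic cells. The part of other cell types in these levels was not tested. The summed counts of cjPGCLCs lay between those of pre-ME and somatic cells for mesoderm and above both for endoderm. Such sums are not corrected for gene length and weigh most the members with the most reads. They do not hold for each member, as HAND1 and PDGFRA show, and do not measure shares of cells.

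**Figure D3:**
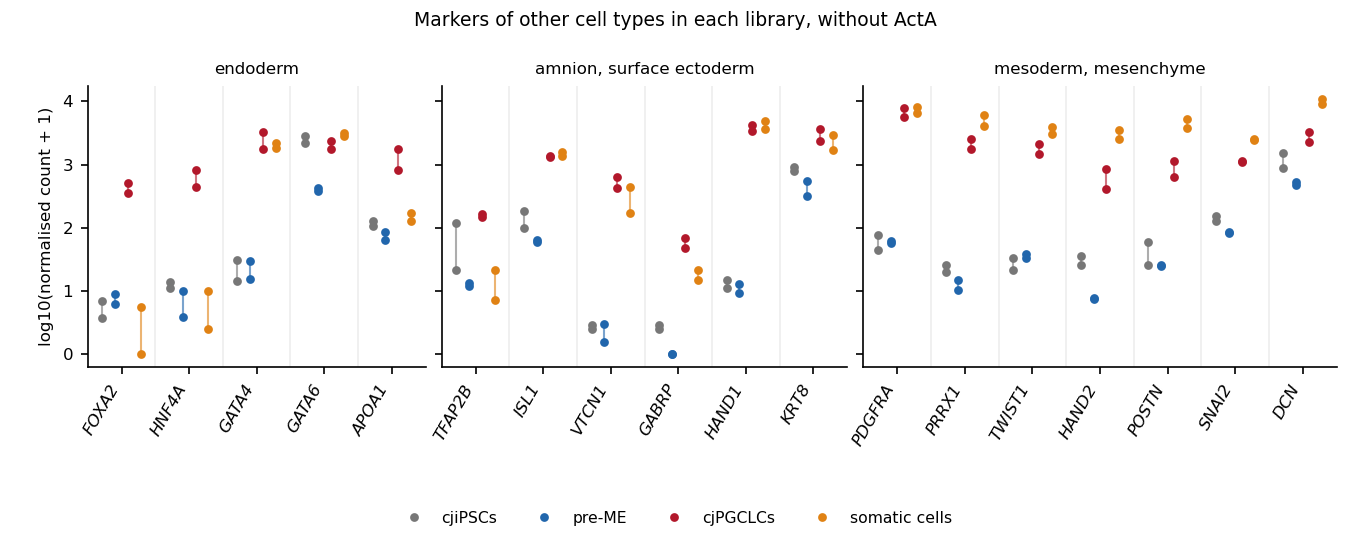
The y axis gives the log10 of the normalised count plus 1, with 1 point per library and lines joining replicates, for markers of endoderm, of amnion and surface ectoderm and of mesoderm and mesenchyme. FOXA2, HNF4A and APOA1 are highest in cjPGCLCs, amnion markers are high in cjPGCLCs and somatic cells alike, and HAND2, POSTN, SNAI2 and DCN are higher in somatic cells than in cjPGCLCs.

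Endothelial and blood markers did not rise together. Of 14 tested, 3 rose and 4 fell (1 of each past both thresholds), with a median of -0.49, and the 4 became 2 without pre-ME replicate 1 and 1 without cjPGCLC replicate 1. The 1 lower past both thresholds was lost without pre-ME replicate 2 or without cjPGCLC replicate 1. KDR, the VEGF receptor, rose from 558 and 397 to 1126 and 996 (1.14 ± 0.19) and CDH5 had 493 and 550.03 in cjPGCLCs and 876 and 729 in pre-ME (adjusted p = 0.22). PTPRC (CD45), the pan-leukocyte marker, was low at 27.3 and 25.2 in cjPGCLCs and 2.36 and 1.98 in pre-ME (3.51 ± 0.63, adjusted p = 0.0006) and without a read in somatic cells, at least 4.55-fold below cjPGCLCs. Among the sort marker genes, CXCR4 had 1183 and 1128 normalised counts in cjPGCLCs, 141 and 144 in pre-ME and 53 and 49.5 in somatic cells. ITGA6, which encodes INTα6, had 1829 and 1401 in cjPGCLCs, 3448 and 3264 in pre-ME and 201 and 155 in somatic cells. EPCAM had 2237 and 1234 in cjPGCLCs, 656 and 759.8 in pre-ME and 141 and 145 in somatic cells. All 3 genes separated the sorted cells from the somatic cells. Against pre-ME, ITGA6 fell (-1.06 ± 0.25) and the rise of EPCAM (1.29 ± 0.33) was lost without cjPGCLC replicate 1 (0.77, adjusted p = 0.14) or pre-ME replicate 1 (1.17, adjusted p = 0.054).

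BMP4 was the main added inducer of the embryoid bodies, and the response genes of the BMP pathway were the list with the largest share of members that rose. BMP ligands bind type I and type II receptors that phosphorylate SMAD1, SMAD5 and SMAD9, which switch on ID genes and the pathway's own inhibitors. Of 18 tested response genes 16 rose, 12 past both thresholds with or without any 1 of the 4 libraries, and 1 fell, with a median of 2.87. The inhibitory SMAD6 had 4645 and 3752 normalised counts in cjPGCLCs against 124 and 125 in pre-ME (5.06 ± 0.28, adjusted p = 1.3e-09). SMAD9 (4.35 ± 0.20), the inhibitory SMAD7 (3.87 ± 0.23) and the secreted BMP antagonist NOG (3.55 ± 0.29) showed large increases as well. ID1 (1.24 ± 0.25), ID2 (1.00 ± 0.19) and ID3 (0.98 ± 0.20), the classical early targets, rose less, from pre-ME levels that were already 996 and 1051 normalised counts for ID1. MSX1 (2.41 ± 0.23), MSX2 (3.75 ± 0.39) and DLX5 (3.86 ± 0.36), homeobox genes that follow BMP, completed the group. The exception was BMP4 itself, which fell from 702 and 833 to 264 and 191 (-1.75 ± 0.37, adjusted p = 0.0013). Somatic cells from the same kind of embryoid bodies held SMAD6 at 3607 and 3470.1 and NOG at 2253 and 2110.2. Of these 18 genes only 1 was higher in cjPGCLCs than in somatic cells past both thresholds and none was lower.

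Of the ligands, receptors and extracellular antagonists of BMP, 11 of 18 changed upwards (6 past both thresholds) and 2 downwards (1 without cjPGCLC replicate 2), while 5 did not pass. The ligand gene BMP5 stood at 915 and 468 in the cjPGCLC libraries against 25.3 and 12.9 in pre-ME (5.10 ± 0.43), and GDF6 at 1694 and 872 against 36.5 and 38.6 (5.09 ± 0.44). In both genes replicate 1 of the cjPGCLCs was well above replicate 2, and both replicates were above pre-ME. The antagonist CHRD (chordin) had 1046 and 627 against 24.2 and 26.7 (5.04 ± 0.32) and was also higher than in somatic cells (2.17 ± 0.27). The receptors BMPR1A (1.40 ± 0.15) and BMPR2 (2.15 ± 0.25) rose.

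WNT feedback targets split. AXIN2, the usual reporter of canonical WNT activity, fell from 1931 and 1697 to 753 and 627 (-1.40 ± 0.14, adjusted p = 8e-07) together with SP5, which is in this list too. LEF1 (2.03 ± 0.27), the secreted WNT inhibitor DKK1 (1.37 ± 0.30), the WNT deacylase NOTUM (3.05 ± 0.19), BAMBI (2.67 ± 0.29) and TNFRSF19 (2.55 ± 0.24) rose. Of 14 tested targets 5 rose (4 past both thresholds) and 3 fell (1 past both, 2 without pre-ME replicate 2 or without cjPGCLC replicate 1), with a median of 0.20. WNT ligands, receptors and secreted modulators rose in 13 of 26 tested cases and fell in 4. WNT3 rose from 2.36 and 2.97 to 53.9 and 28.4 normalised counts (3.97 ± 0.47), WNT5A, a ligand of the non-canonical branch, from 272 and 275 to 1669 and 1139 (2.35 ± 0.17) and WNT11 from 20.6 and 30.7 to 172 and 88.3 (2.39 ± 0.46). WNT4 fell from 56 and 39.6 to 3.04 and 9.46 (-3.17 ± 0.58). Both cjPGCLC libraries lay outside the pre-ME range for each of these ligands. The receptor FZD4 (2.02 ± 0.18) and the inhibitor SFRP1 (2.47 ± 0.43) rose, and SFRP2 fell (-1.35 ± 0.25). Past both thresholds there were 8 higher and 2 lower genes in this list, with 5 higher ones without cjPGCLC replicate 1 and 1 lower one without pre-ME replicate 2 or without cjPGCLC replicate 2.

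In the NODAL and Activin pathway, 6 of 11 tested genes rose and 2 fell (1 of each past both thresholds). The ligand gene GDF3 fell, and the receptor ACVR2A (1.17 ± 0.23), the transducer SMAD3 (1.22 ± 0.15) and the repressor SKIL (1.66 ± 0.21) rose. In the FGF pathway 9 of 22 tested genes rose and 5 fell. FGF2 rose from 10.6 and 12.9 to 254 and 271 (4.48 ± 0.44, adjusted p = 9.4e-07), and FGF8, the ligand of the streak, went from 43.6 and 23.8 to 1.52 and 0, at least 9.62-fold lower. Among feedback genes of ERK, DUSP5 (2.48 ± 0.28) and ETV5 (2.28 ± 0.32) rose and SPRY1 (-1.02 ± 0.21) fell, so that the ERK feedback genes did not move one way.

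Genes of the receptors of LIF and SCF rose. LIFR, the LIF receptor, had 2436 and 1645 normalised counts in cjPGCLCs and 227 and 219 in pre-ME (3.18 ± 0.26, adjusted p = 1.2e-07), and its partner IL6ST (gp130) rose by 1.45 ± 0.19. STAT3 (1.08 ± 0.14) and its feedback target SOCS3 (2.00 ± 0.28) rose as well, and GBX2, a LIF target in mouse stem cells, fell from 844 and 778 to 63 and 45.7 (-3.86 ± 0.53). In this list 7 of 12 tested genes rose and 1 fell, and only LIFR was higher past both thresholds. Without pre-ME replicate 1 or without cjPGCLC replicate 2 that number was 3. In the SCF and EGF list 6 of 9 tested genes rose, none fell and 3 did not pass. Besides KIT these were ERBB2 (1.28 ± 0.15), ERBB3 (1.80 ± 0.23), ERBB4 (2.66 ± 0.61) and the ligand gene TGFA, which had 26.6 and 9.46 normalised counts against 1.18 and 1.98 and lost its call without cjPGCLC replicate 1 (adjusted p = 0.10). The remaining one was ERRFI1, a feedback inhibitor of the EGF receptor.

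Most epithelial junction genes rose. Of 20 tested epithelial junction genes 14 rose and none fell, with a median of 1.64, and 8 passed both thresholds, against 4 without cjPGCLC replicate 1. Without EPCAM, a gene of the sort, 13 of 19 rose. CDH3 (P-cadherin) rose from 211 and 122 to 3736 and 2579.9 (4.21 ± 0.44, adjusted p = 1.8e-06). The polarity gene CRB3 had 147 and 78.8 against 2.36 and 1.98 (5.62 ± 0.63) and TJP3 63 and 47.3 against 5.31 and 4.95 (3.40 ± 0.45), and both were higher than in somatic cells, at least 19.5-fold and at least 9.54-fold. CLDN6 (3.24 ± 0.35) and CLDN7 (2.43 ± 0.51), claudins of tight junctions, rose, although CLDN7 lost its call without cjPGCLC replicate 1 (1.56, adjusted p = 0.081). CDH2 (N-cadherin) rose by 1.20 ± 0.17, so that cadherins of both epithelial and mesenchymal cells were among the genes that rose. Integrins and laminins rose in 14 of 26 tested cases and fell in 4, with 5 past both thresholds (3 without cjPGCLC replicate 1 or without pre-ME replicate 2), and without ITGA6, a gene of the sort, 14 of 25 rose and 3 fell. ITGA4 (3.36 ± 0.34), ITGB8 (2.77 ± 0.18) and LAMB1 (1.80 ± 0.18) are examples. Of 24 collagens and matrix genes 11 rose, 12 did not pass and 1 fell, which was COL12A1 (-2.36 ± 0.44). COL6A3 (5.04 ± 0.49), COL6A2 (5.23 ± 0.60) and COL3A1 (2.69 ± 0.50) had more normalised counts in somatic cells. NID2 (nidogen) and TNC (tenascin C), in contrast, were higher in cjPGCLCs than in both neighbours. NID2 had 11408 and 7869, 486 and 546 and 1822 and 1555 normalised counts in cjPGCLCs, pre-ME and somatic cells (4.21 ± 0.29 and 2.53 ± 0.27), and TNC 5239 and 3691, 173 and 138 and 394 and 479.6 (4.82 ± 0.30 and 3.37 ± 0.29).

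Of 11 tested DNA methylation genes, 1 was higher past both thresholds (APOBEC3G) and 1 lower (DNMT3B). Of all tested genes 5.77% were higher and 2.11% lower past both thresholds. DNMT3B, a de novo DNA methyltransferase that PGCs are known to repress, had 772 and 783 normalised counts in cjPGCLCs against 3519 and 3297 in pre-ME (-2.14 ± 0.32, adjusted p = 5.7e-05). The somatic libraries held 803 and 831, so the lower level was not particular to the sorted cells. DNMT3A (0.30 ± 0.14, adjusted p = 0.091) and the maintenance enzyme DNMT1 (-0.30 ± 0.17, adjusted p = 0.19) did not pass the test. TET1 (1.26 ± 0.16) and TET2 (1.57 ± 0.18), which oxidise methylcytosine, rose, as did the cytidine deaminase gene APOBEC3G (2.86 ± 0.53). Of 25 chromatin modifiers 8 rose and 4 fell, none past both thresholds. The histone demethylase genes KDM4B (1.07 ± 0.16), KDM5A (1.04 ± 0.16), KDM6A (1.17 ± 0.17) and KDM6B (1.03 ± 0.18) were among the 8 that rose, of which 4 remained without pre-ME replicate 2, and the arginine methyltransferase gene PRMT5 fell (-0.69 ± 0.11).

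In lists of metabolism and of the cell cycle more genes fell than rose against pre-ME. Over somatic cells the median log2 fold changes were 0.15 for oxidative phosphorylation and -0.04 for glycolysis and hypoxia. They were 0.07 for the cell cycle and -0.36 for cholesterol. Apart from cholesterol, the lower list medians were thus not particular to the sorted cells. The counts of genes below are against pre-ME. Of 27 tested genes of oxidative phosphorylation 20 fell and none rose, none past both thresholds, with a median of -0.66. NDUFS3 (-0.99 ± 0.13) and NDUFS7 (-1.20 ± 0.17) of complex I, SDHB (-0.96 ± 0.18) of complex II and ATP5MC1 (-1.36 ± 0.28) of the ATP synthase are examples. Without pre-ME replicate 2 the number that fell was 13. Glycolysis and hypoxia genes fell in 16 of 29 cases and rose in 5 (3 without cjPGCLC replicate 1 or without pre-ME replicate 2). The glycolytic enzyme GAPDH (-1.08 ± 0.17) and the glucose transporter gene SLC2A1 (-1.34 ± 0.14) fell. The hypoxia-responsive genes VEGFA, NDRG1 and ADM rose past both thresholds, VEGFA from 117 and 106 to 2331 and 3026 normalised counts (4.57 ± 0.29, adjusted p = 7.3e-09), NDRG1 by 2.62 ± 0.27 and ADM by 2.01 ± 0.32. VEGFA had 491 and 489 normalised counts in somatic cells. Of 23 cholesterol genes 15 fell, among them SQLE (-0.89 ± 0.12). Without pre-ME replicate 2 the number of cholesterol genes that fell was 9. Of 29 cell cycle genes 15 fell and 5 rose. CCND1 (cyclin D1) fell from 5984 and 5615 to 1959 and 1964 (-1.58 ± 0.23) and CDKN1A (p21), the only one past both thresholds, from 679.7 and 861 to 92.7 and 78.8 (-3.16 ± 0.34). MYC (-1.78 ± 0.29), PCNA (-0.97 ± 0.14) and CDKN2A (-1.64 ± 0.24) fell as well. CDK6 rose (1.36 ± 0.17) and TOP2A did not pass (adjusted p = 0.086). Without pre-ME replicate 2 the number of cell cycle genes that fell was 9. Genes of the response to dissociation and stress, which sorting can induce, were mixed. Of 27 tested 6 rose (3 without cjPGCLC replicate 1) and 4 fell (2 without cjPGCLC replicate 2), with a median of -0.04. KLF6 (1.52 ± 0.20), ATF3 (1.50 ± 0.34) and JUN (1.33 ± 0.30) rose and the chaperone gene HSPA8 fell (-0.73 ± 0.12).

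**Figure D4:**
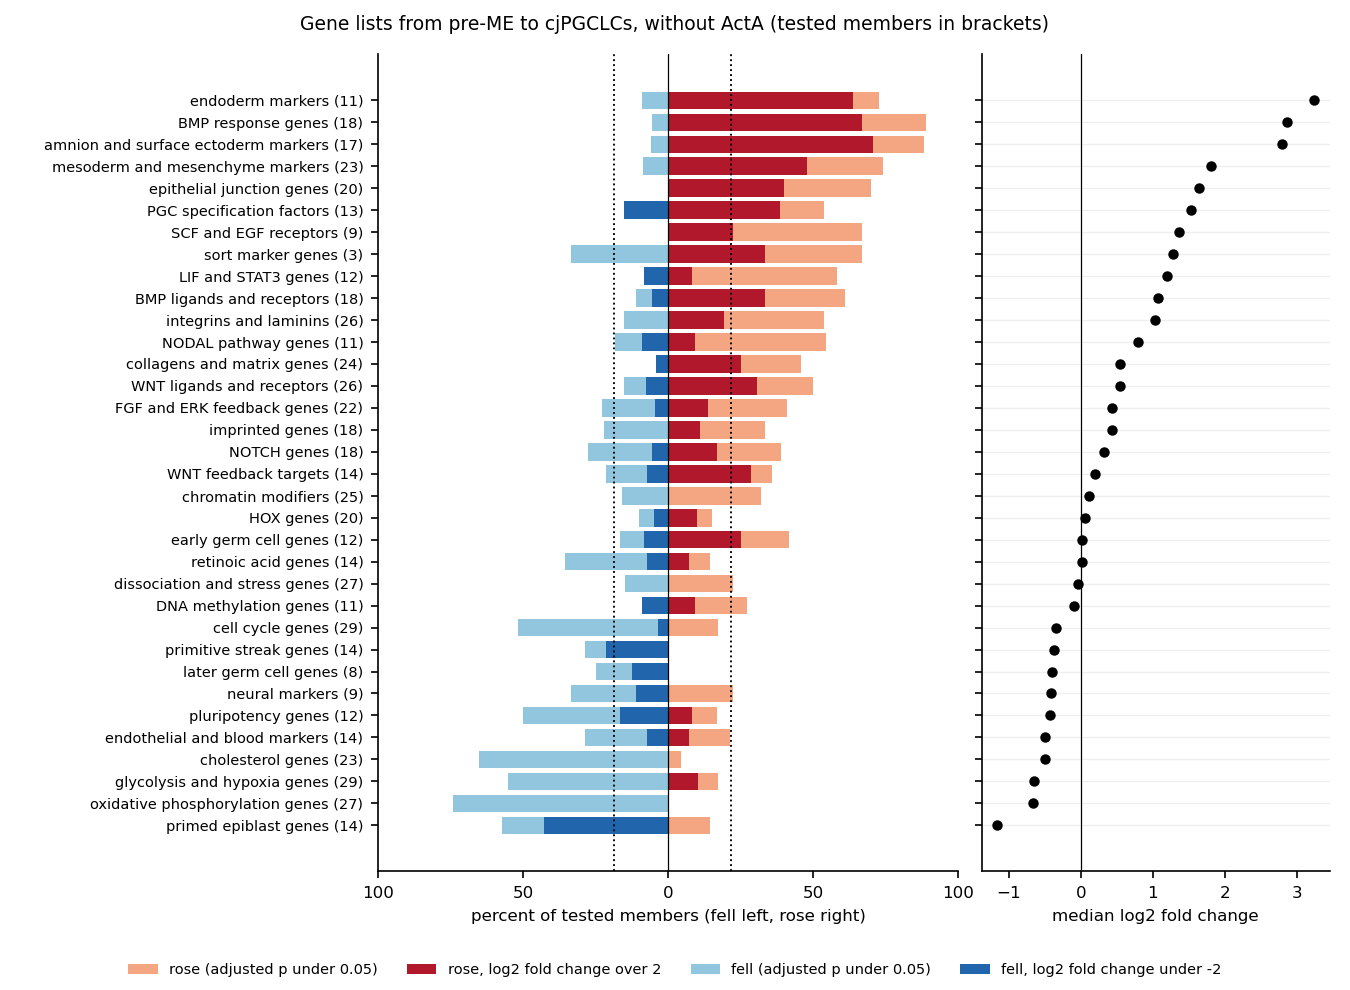
For each of the 34 gene lists, bars give the percent of tested members (number in brackets) that fell (left) or rose (right) in cjPGCLCs over pre-ME by the adjusted p, with darker bars for those past both thresholds, and the right panel gives the median log2 fold change. Dotted lines mark the percent of all tested genes that fell (18.5%) and rose (21.5%). Endoderm, BMP response, amnion and mesoderm lists stand at the top and primed epiblast, oxidative phosphorylation and glycolysis lists at the bottom.

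Across the whole table, the genes with the largest folds and at least 100 normalised counts on average in the higher group were largely genes that were almost silent in pre-ME. A ranking by fold favours such genes. Of the 10 with a symbol that rose most, 6 had 3 reads or fewer in both pre-ME libraries, against 237 of all 912 higher genes. TH (tyrosine hydroxylase) had 402 and 110.3 normalised counts in cjPGCLCs and none in pre-ME (at least 108-fold), the amino acid transporter gene SLC38A8 339 and 149.7 and none (at least 103-fold) and GATA5, a factor of endoderm and heart, 337 and 191 and 0.59 and 0 (at least 111-fold). For these genes replicate 1 of the cjPGCLCs was the higher one. The sialyltransferase gene ST6GAL2 (171 and 227 against 0 and 0.991, at least 83.9-fold) and the phosphatase subunit gene PPP2R2C (148 and 179.7 against 0 and 0.991, at least 69.1-fold) were near the floor in somatic cells as well, where they were at least 34.4-fold and at least 28.4-fold lower than in cjPGCLCs. SCIN, which encodes the actin-severing protein scinderin, combined a large fold with a high level. It had 12087 and 11210.1 normalised counts in cjPGCLCs, 12.4 and 47.6 in pre-ME and 104 and 60.3 in somatic cells, log2 fold changes of 8.73 ± 0.70 over pre-ME (adjusted p = 9.3e-08) and 7.21 ± 0.66 over somatic cells (adjusted p = 2.8e-06). RSPO3, a secreted enhancer of WNT signals, rose from 7.07 and 14.9 to 2956 and 1689 (7.81 ± 0.73), and the sodium channel gene SCN11A from 2.36 and 0.991 (4 and 1 reads) to 645 and 627.

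The genes with the largest folds among those that fell were picked by the same rule. FOXB1, a forkhead factor of the early neural plate, went from 241 and 211 to 0.759 and 3.15 normalised counts, at least 64.5-fold lower. APLN (apelin) went from 550.01 and 593 to 5.32 and 15.8 (-6.00 ± 0.57), SOSTDC1, a secreted BMP and WNT antagonist, from 516 and 719 to 14.4 and 17.3 (-5.32 ± 0.43) and NTN1 (netrin 1) from 2069 and 1569 to 59.2 and 78.8 (-4.77 ± 0.65). CBLN2 (-5.24 ± 0.37), HTR3A (-4.79 ± 0.33) and TSPAN8 (-4.34 ± 0.54) also had some of the largest folds, as did SP5 and SOX3. In somatic cells, too, both libraries lay below pre-ME for each of these genes.

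The genes picked by the size of their difference in normalised counts, a choice that also depends on gene length, included the matrix genes FN1 and VCAN. FN1 (fibronectin) went from 7707 and 5201 to 47484 and 36855 (2.70 ± 0.24) and VCAN (versican) from 5303 and 3682 to 25561 and 18997 (2.30 ± 0.26). ADAM19, a metalloprotease, went from 3291 and 2652 to 17154 and 19407 (2.61 ± 0.19), MATN2 (matrilin 2) from 232 and 196 to 6719.6 and 6519.9 (4.93 ± 0.19) and the antioxidant gene GPX3 from 186 and 203 to 8842 and 7696 (5.40 ± 0.23). ADAM19 (1.39 ± 0.18) and MATN2 (1.25 ± 0.17) were also higher than in somatic cells. The netrin receptor gene UNC5B rose by 3.72 ± 0.38. Of the genes that fell and were picked in the same way, the cold-shock protein gene YBX3 went from 9031 and 10378 to 1913 and 1916 (-2.35 ± 0.21, adjusted p = 3.8e-07), the neurofilament gene NEFM from 2968 and 2740.2 to 448 and 669.8 (-2.38 ± 0.31) and the microtubule gene MAP2 from 1679 and 1652 to 233 and 247 (-2.81 ± 0.15). The creatine kinase gene CKB (-2.09 ± 0.33) and RGMB (-3.02 ± 0.19), a BMP co-receptor, fell as well.

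The sorted cells were also set against the somatic cells of the same kind of induction, which shared day, medium, aggregation and sorting. Here 378 genes (2.39%) were higher in cjPGCLCs past both thresholds and 71 (0.45%) lower, fewer than against pre-ME, and by the adjusted p alone 1054 (6.67%) were higher and 469 (2.97%) lower. Without somatic replicate 2 the lower genes numbered 44. The somatic cells themselves differed from pre-ME in 788 higher (4.99%) and 467 lower genes (2.96%). As both of these comparisons share libraries with that of cjPGCLCs over pre-ME, the numbers stand side by side and were not set against each other.

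The same step with ActA in the pre-ME medium gave counts of like size in 4 other libraries. There 971 genes (6.15%) were higher and 350 (2.22%) lower past both thresholds. Of the higher genes 622 were shared, 68.2% of the list without ActA and 64.1% of the list with ActA. Of the lower genes 154 were shared, 46.2% and 44% of the lists. Only 28 of the 912 and 26 of the 333 had the opposite sign with ActA. Tested directly, the log2 fold change was higher without ActA in 433 genes (2.74%) and lower in 274 (1.73%) by the adjusted p. These counts depended on single libraries. The 433 became 138 without pre-ME replicate 2, 139 without cjPGCLC replicate 1 and 279 without cjPGCLC replicate 2 of the condition without ActA, and 122 without pre-ME replicate 1, 193 without cjPGCLC replicate 1 and 205 without cjPGCLC replicate 2 of the condition with ActA. The 274 became 66 to 172 when any library but cjPGCLC replicate 2 of the condition with ActA was left out, and 194 without that library. With library totals in place of TMM factors, 305 genes were higher and 344 lower, and the median of all genes moved to -0.15.

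Among the genes with the smallest p of this difference, levels differed between the conditions in pre-ME alone or in cjPGCLCs as well. ADRA1B, an adrenergic receptor, rose without ActA from 20.04 and 14.9 to 96.4 and 104 normalised counts and fell with ActA from 1333 and 1029 to 97.2 and 119, a difference of 5.92 ± 0.38 on the log2 scale (adjusted p = 5e-07). Its cjPGCLC levels were alike in both conditions and its pre-ME levels were not. NOTUM had 105 and 92.1 in pre-ME and 859.7 and 797 in cjPGCLCs without ActA, and with ActA 549 and 379 in pre-ME and 519 and 566 in cjPGCLCs (difference 2.84 ± 0.25, adjusted p = 2.5e-05). ADAM19 went from 3291 and 2652 in pre-ME to 17154 and 19407 in cjPGCLCs without ActA and had 7913 and 8167 in pre-ME and 7949.7 and 9030.02 in cjPGCLCs with ActA (difference 2.53 ± 0.25). For NOTUM and ADAM19 the libraries of the conditions did not overlap in pre-ME or in cjPGCLCs, and cjPGCLCs without ActA were the highest. The neurofilament gene NEFL (difference 2.87 ± 0.27) and the ETS factor gene ETS2 (1.85 ± 0.18) fell with ActA, while their log2 fold changes without ActA were 0.62 ± 0.19 and -0.22 ± 0.13, of which that of NEFL passed the test in the full fit (adjusted p = 0.015) and lost it when any 1 of the 4 libraries was left out. In the other direction, NPY1R, a neuropeptide Y receptor, fell without ActA from 748 and 1053 to 215 and 246 and rose with ActA from 65.9 and 77.2 to 718 and 359.7 (difference -4.92 ± 0.45, adjusted p = 2.5e-05). GRIA1 (-3.06 ± 0.33), SEMA3E (-2.75 ± 0.29), FGF12 (-2.34 ± 0.26) and LGR4 (-1.66 ± 0.20) had lower log2 fold changes without ActA as well.

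Several genes described above differed in this test. TBX3 (difference 2.62 ± 0.35, adjusted p = 0.00062) and GATA2 (1.80 ± 0.30, adjusted p = 0.0026) had higher log2 fold changes without ActA. With ActA, TBX3 had 306 and 229 normalised counts in cjPGCLCs and 186 and 202 in pre-ME, and GATA2 had 2622 and 3454 in cjPGCLCs and 1039.7 and 1263 in pre-ME. SMAD7 (2.40 ± 0.29) rose in both conditions and more so without ActA, from a pre-ME level that was lower (119.7 and 134 against 847 and 638). CDX1 (difference 2.95 ± 0.43) and CDX2 (4.16 ± 0.62), homeobox genes of the posterior embryo, fell steeply with ActA, from pre-ME levels of 678 and 449 for CDX1 and 197 and 139 for CDX2. The endoderm gene FOXA2 had 192 and 83.9 normalised counts in cjPGCLCs with ActA, less than without, and its fold over pre-ME did not pass the test of the difference (0.87 ± 0.97, adjusted p = 0.64). SOX17 (0.97 ± 0.62, adjusted p = 0.38) and NANOS3 (1.74 ± 0.98, adjusted p = 0.31) did not pass either, with 913 and 1034 normalised counts of SOX17 and 42.3 and 14.2 of NANOS3 in cjPGCLCs with ActA. All 4 libraries of cjPGCLCs held more SOX17 than any pre-ME library of either condition.

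**Figure D5:**
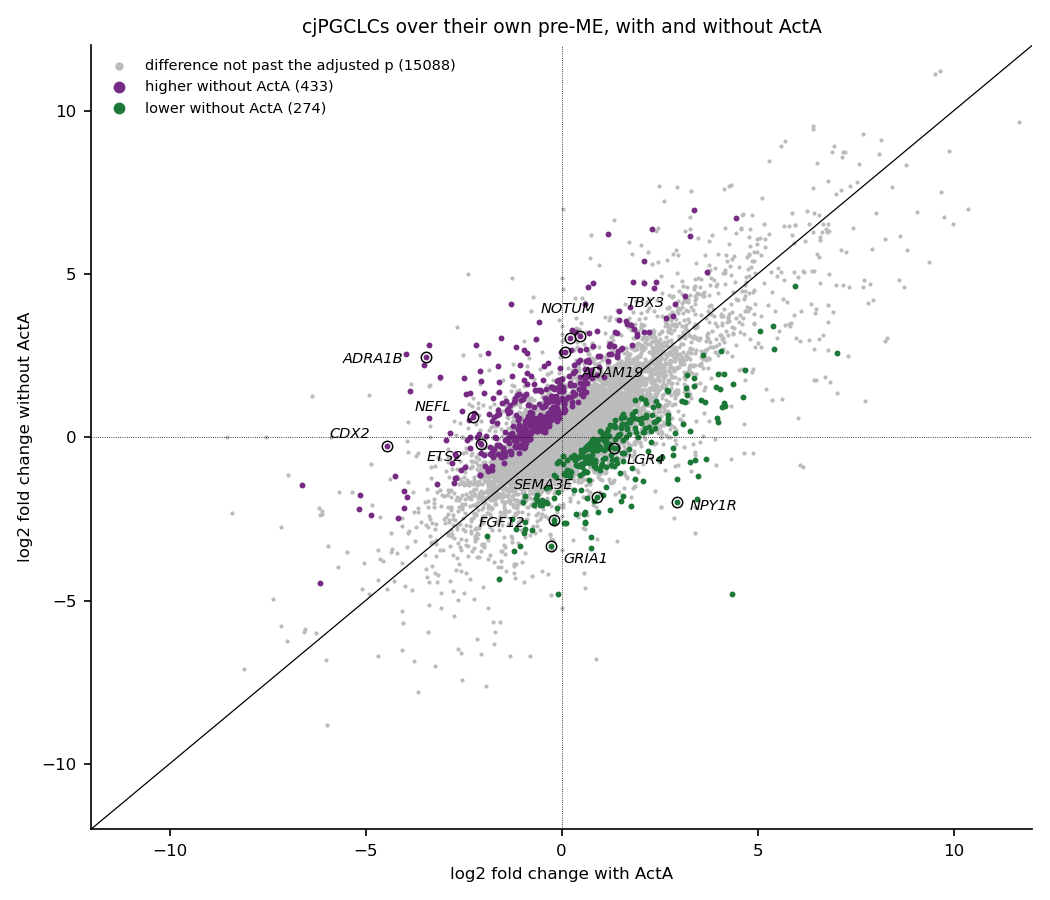
Each point is 1 of the 15795 tested genes, with the log2 fold change of cjPGCLCs over their own pre-ME with ActA on the x axis and without ActA on the y axis, and the line marks equal change. Purple points (433) had a higher and green points (274) a lower log2 fold change without ActA by the adjusted p of the difference, and the circled genes are named. ADRA1B and NPY1R lie farthest from the line among the 10 genes with the smallest p, on opposite sides.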

How the data were processed

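Poly(A) RNA libraries of DPZ_cjiPSC2 cells were sequenced as paired ends, checked with FastQC 0.11.8, mapped to calJac4 with STAR 2.7.0a and counted with HTSeq 0.11, per the study's methods and the submitters' notes. The authors deposited the raw count of each gene per library and a normalised signal, the count scaled by a DESeq2 size factor of each library. The annotation release and strand setting are not given in the sources used here, so overlapping, antisense and near-identical genes can share or lose reads. Reads listed outside genes (10.6% to 23.2% per library), ambiguous reads and 2 lines whose name is no gene were left out. Of 25100 genes, 9025 have a LOC name only. A RefSeq table of calJac240_pri, a build other than that of the counts, has 21267 of the names, and no coordinates are given.

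Groups and replicate numbers came from the labels. Raw counts of all 20 libraries were fitted with edgeR 4.0.16 in R 4.3.3 (TMM, 1 coefficient per group, filterByExpr, quasi-likelihood F-test, 10 residual degrees of freedom, common dispersion 0.0203), leaving 15795 genes, with Benjamini-Hochberg adjustment within each comparison. Standard errors are the log2 fold change over the root of F. Where both libraries of the lower group had 3 reads or fewer, a bound of the fold against 3 reads per library is given, and none where both groups were so low. This floor, 3.50 normalised counts in cjPGCLCs and 2.37 in pre-ME, covers counting error only. In simulated counts that carried 200 changed genes (log2 fold change 3 either way), the fit on 20 libraries recovered 199 with 1 false call among 15587 genes. The changed genes were drawn from those well covered in pre-ME, and the counts followed the fitted model itself. This run therefore shows only that the code works, and says nothing of genes near the floor or changes close to the threshold. Replicates differed by more than sampling noise (chi-square per degree of freedom 5.23 in cjPGCLCs and 14.3 in pre-ME).

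Genes named were members of 34 lists, the 10 with a symbol each way with the largest folds (mean of at least 100 normalised counts in the higher group, no overlap) or differences of normalised counts among those past both thresholds, and the 5 each way with the smallest p of the difference between ActA conditions. Some genes that these rules name are not reported here. Lists and comparison were chosen with earlier results of these data known. Alternatives were DESeq2 1.42.0, its size factors or library totals in edgeR, no filter, a filter at 1 CPM on average, glmTreat, the libraries of a comparison alone, a replicate block, and each library left out in turn.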

Additional observations from a re-analysis of the deposited data

Results flagged for a closer look

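In the test of the difference between the ActA conditions, the log2 fold change of cjPGCLCs over pre-ME was higher without ActA in 433 genes and lower in 274. The 5 genes each way with the smallest p were singled out by this test. The difference, without ActA minus with ActA on the log2 scale, was 5.92 for ADRA1B, 2.84 for NOTUM, 2.87 for NEFL, 2.53 for ADAM19 and 1.85 for ETS2. It was -4.92 for NPY1R, -2.75 for SEMA3E, -3.06 for GRIA1, -2.34 for FGF12 and -1.66 for LGR4. ADRA1B and NPY1R moved in opposite directions in the 2 conditions. Every cjPGCLC library lay on the same side of both pre-ME libraries of its own condition. As both genes were picked by the p of this difference, that separation is no further support. No group here has enough libraries for a test of single outlying samples.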

How the results depend on the processing

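Of the 1245 genes past both thresholds, 1240 were called again with DESeq2's size factors, 1214 with library totals, 1229 with the replicate block, 1128 with DESeq2, 1072 with the 4 libraries alone and 389 with glmTreat, which tests against the fold threshold itself. Leaving out 1 library kept 921 to 1109. The lowest number, 921, was without cjPGCLC replicate 1, where 1 gene took the opposite sign. The counts were 912 higher and 333 lower, 754 to 951 and 278 to 329 without 1 library, and 339 and 50 with glmTreat. Over somatic cells they were 378 and 71, 256 to 365 and 44 to 53 without 1 library, and 77 and 0 with glmTreat, while DESeq2 gave 317 and 62. For the difference between ActA conditions they were 433 and 274, 122 to 366 and 66 to 194 without 1 library, 779 and 730 without a filter, 1403 and 1109 with the 8 libraries alone and 677 and 406 with DESeq2. With library totals the share of higher genes went from 61.2% to 47.0%. The cause of these shifts was not tested. The labels share replicate numbers without saying what they mark, and with 2 numbers per group they were not taken as pairs. Over genes, deviations of same-numbered libraries correlated by 0.0990 between cjPGCLCs and pre-ME, 0.0269 between cjPGCLCs and somatic cells, 0.229 between cjPGCLCs without and with ActA and 0.222 between pre-ME without and with ActA. A replicate block gave 906 higher and 326 lower genes over pre-ME, 371 and 70 over somatic cells and 412 and 251 for the difference. Of 209 named genes in 2293 refits over pre-ME (glmTreat aside) 2260 kept direction and side of the threshold, 23 lost and 8 gained the call, and TFAP2C (-0.047 to 0.84 without 1 library) and EOMES (-2.08 to 0.16) changed sign without pre-ME replicate 1, neither of which had passed the test. Of 136 counts in gene lists, 1445 of 1632 values stayed within 1.5 times the main one. SOX17 passed the test of the difference between ActA conditions without a filter (0.92, adjusted p = 0.016) and with 8 libraries alone (0.98, adjusted p = 0.0082). The depth of cjPGCLC replicate 2 and of the somatic cells limits what can be said of genes of a few reads.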

Other observations

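Other gene groups changed in part. Of 18 tested NOTCH genes 7 rose (3 past both thresholds) and 5 fell (3 without cjPGCLC replicate 1), with a median of 0.32. The ligand gene DLL1 rose from 110.2 and 109.96 to 619 and 409.8 normalised counts (2.22 ± 0.26). HEY1, a target of NOTCH and also of BMP, rose from 110.2 and 118 to 2208 and 2396 (4.32 ± 0.17, adjusted p = 3.9e-11) and HEY2 from 13.6 and 6.93 to 205 and 195 (4.18 ± 0.37). For both HEY genes the somatic libraries were at least as high, with 2846 and 2512 for HEY1 and 539.6 and 497 for HEY2. MFNG, which modifies NOTCH receptors, was at least 6.39-fold lower, with 2.28 and 3.15 normalised counts in cjPGCLCs and 23 and 21.8 in pre-ME.

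In the retinoic acid list 5 of 14 tested genes fell and 2 rose, and the 5 became 3 without pre-ME replicate 1, without pre-ME replicate 2 or without cjPGCLC replicate 2. CRABP1, a cytoplasmic retinoic acid binding protein, fell from 961 and 891 to 93.4 and 70.9 (-3.48 ± 0.27, adjusted p = 5.8e-08), the receptor gene RARB fell (-1.72 ± 0.16) and the degrading enzyme gene CYP26B1 rose by 2.21 ± 0.49. Among 18 imprinted genes 6 rose and 4 fell. IGF2, the paternally expressed growth factor, rose from 14.1 and 9.91 to 1125 and 720.2 (6.20 ± 0.35, adjusted p = 1.5e-09) and stood at 1836 and 1338 in somatic cells, and ZIM2 was at least 6.18-fold higher than in pre-ME. PEG10 (-0.80 ± 0.12), SNRPN (-1.28 ± 0.27) and NNAT (-1.12 ± 0.16) were among the genes that fell. Of 37 HOX genes with any read, 20 could be tested, 3 rose, 2 fell (1 when any 1 of the 4 libraries was left out) and 15 did not pass. HOXA13 rose from 30.7 and 37.6 to 317 and 241 (3.05 ± 0.36) and HOXB3 was at least 6.04-fold higher. Their summed level was 432 to 529 normalised counts in cjPGCLCs, 525 to 617 in pre-ME and 1117 to 1160 in somatic cells, and 5 were lower in cjPGCLCs than in somatic cells past both thresholds.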
